A study of Homo sapiens with 4 samples.

Results

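The genes examined here were 10 genes of the NRF2 pathway, namely the transcription factor gene NFE2L2, its negative regulator KEAP1, and 8 known targets, NQO1, HMOX1, GCLC, GCLM, TXNRD1, SRXN1, SLC7A11 and OSGIN1. They were chosen by name from knowledge of the pathway, at a time when earlier results of these data were known. They were found among the 26726 genes of the deposited tables by their symbols, and were joined to the counts by Ensembl identifier. RNA-seq had been run on HN12 cells, a head and neck squamous cell carcinoma line, with 2 libraries of ATAD3A knockout cells (KO) and 2 libraries of parental cells (WT). The question put to the data was how the NRF2 pathway genes were expressed with and without ATAD3A, which encodes an ATPase of mitochondrial membranes. The KO cells had been made with CRISPR/Cas9 and 1 guide RNA, selected with puromycin and grown out from single cells, and the clone or clones behind the KO libraries are not stated, so a difference between clones cannot be told apart from the loss of ATAD3A. The 2 cultures of each group were independent, were grown in serum-containing medium, and received no treatment that the labels name.

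NRF2, the protein of NFE2L2, is a basic leucine zipper transcription factor that binds the antioxidant response element together with a small MAF protein. KEAP1 is an adaptor of a CUL3 ubiquitin ligase, holds NRF2 and directs its degradation, and oxidants or electrophiles that react with KEAP1 cysteines let NRF2 build up. Its level is thus set largely by protein stability, and the mRNA of NFE2L2 does not report it. The targets supply glutathione, thioredoxin and NADPH, conjugate electrophiles and handle heme and iron, and the pathway is often activated by mutation in squamous carcinomas.

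The core of the antioxidant response element, TGACNNNGC, was searched on both strands in RefSeq promoter windows of build GRCh38.p14, which run from 250 bases before to 50 bases after a gene's start. The windows held 8 of the 10 genes, with 11 windows in all, and none for HMOX1 and SLC7A11. A match was present in 4 of these 11 windows (36.4%), in GCLM, TXNRD1 and KEAP1, and in 4687 of all 35116 windows (13.3%). The matches are shown because the letters are those NRF2 is known to bind, each 5′ to 3′ on the gene's own strand with the match in capitals.
GCLM, chr1:93909446-93909474, minus strand: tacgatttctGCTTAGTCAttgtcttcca
TXNRD1, chr12:104215670-104215698, plus strand: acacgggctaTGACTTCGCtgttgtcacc
TXNRD1 at its other start, chr12:104286920-104286948, plus strand: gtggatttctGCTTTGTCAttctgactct
KEAP1, chr19:10502807-10502835, minus strand: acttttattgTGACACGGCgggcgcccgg
KEAP1, chr19:10502784-10502812, minus strand: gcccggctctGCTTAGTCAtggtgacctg
The match in GCLM began 34 bases before the start and read on the opposite strand, and its letters GCTTAGTCA recurred in KEAP1. The matches printed for TXNRD1 began 99 and 102 bases before their respective starts, and a further match in TXNRD1, not printed, began 8 bases before a start and crossed it. Both KEAP1 matches lay in the window of its start at position 10502771. The window of its other start, at position 10503356, held none. In the GENCODE v29 annotation the first TXNRD1 stretch lay outside exons, and the others overlapped exons of annotated transcripts. These are matches of letters in a fixed window, not measured binding.

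The libraries held 18943547 and 16805766 counts in KO and 15173766 and 13569971 in WT, so that 3 counts, used as the detection floor, corresponded to between 0.162 and 0.215 CPM (counts scaled to the size of the library, with TMM factors). ATAD3A, the targeted gene, had 702 and 492 counts in KO and 1802 and 1471 counts in WT (log2 fold change -1.70, edgeR adjusted p = 1.58e-17), in accordance with the labels, though 36.4% of its 50-base stretches recur in other genes, mostly in ATAD3B, so its level is uncertain. All 7 squamous epithelial markers were detected, and their summed level was 1654 and 1655 RPKM (counts scaled to gene length and library size) in KO against 571 and 569 RPKM in WT, with 4 of the 7, all keratins, higher and 3 lower in KO. The 5 markers of leukocytes, endothelium and fibroblasts that were measured summed to between 2.98 and 4.30 RPKM in every library. The part of these keratin differences in the results below was not tested. In bulk RNA, fewer cells expressing a gene and less RNA per cell cannot be told apart.

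The 10 genes did not move one way in KO cells. The subunits of glutamate-cysteine ligase, GCLC and GCLM, and the thioredoxin reductase TXNRD1 fell by 0.47 to 0.62 on the log2 scale, SLC7A11 fell less, KEAP1 and OSGIN1 rose, and NFE2L2, NQO1, HMOX1 and SRXN1 did not pass the test. At an adjusted p under 0.05 in edgeR's quasi-likelihood test, 2 genes were thus higher and 4 lower, 6 of 10, where 39.5% of the 15104 genes tested were called, 20.4% higher and 19.1% lower. All 10 genes passed the filter on low counts. Their median log2 fold change was -0.073 against -0.0042 over all genes tested. With the limits on fold and unadjusted p that the methods state, applied here to edgeR's quasi-likelihood p and not to the DESeq test they name, 1 member was higher (OSGIN1) and 3 were lower (GCLC, GCLM and TXNRD1), where 29.2% of all genes tested passed, 17.0% higher and 12.2% lower. No member changed more than 2-fold, a size that 6.14% of all genes tested reached with a call. In 7 of the 10 the KO and WT libraries did not overlap, close to the 68.1% of all genes tested, 5 of them lower in KO (34.0% of all genes) and 2 higher (34.1%). With splines for GC content and gene length, a correction chosen after the data were seen, the members called were 0 higher and 3 lower, namely GCLC, GCLM and TXNRD1, where 33.4% of all genes were called and 16.4% were called lower.

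**Figure D1:**
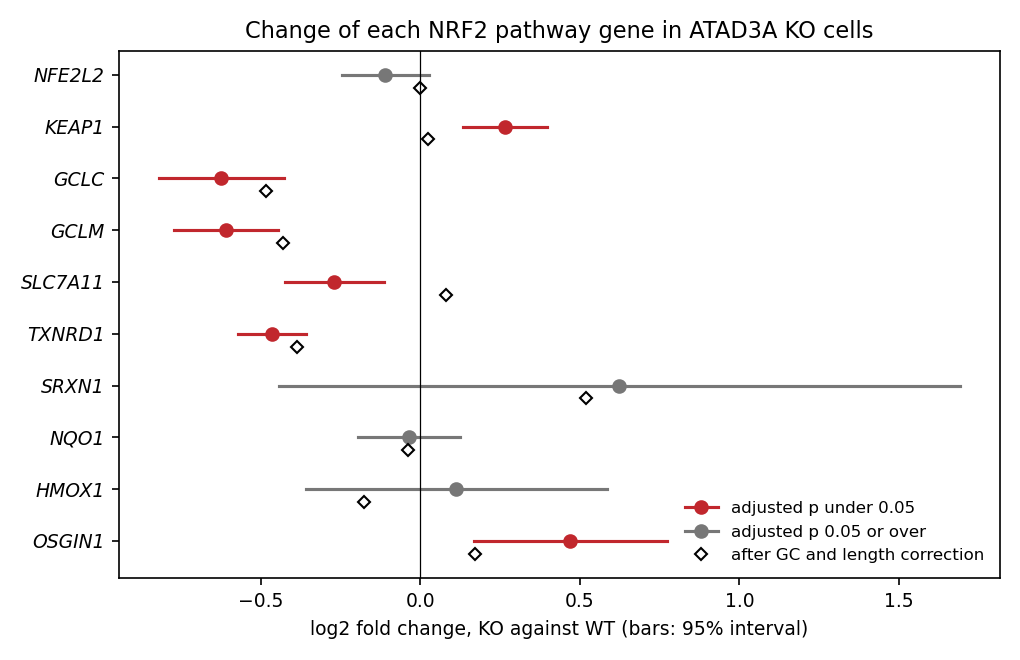
Log2 fold change of each of the 10 NRF2 pathway genes, KO against WT (x axis), as a point with its 95% interval as a bar, red where the adjusted p was under 0.05 and grey otherwise, with the value after the GC and length correction as an open diamond. GCLC, GCLM, TXNRD1 and SLC7A11 lie left of 0 with intervals that leave it out, KEAP1 and OSGIN1 lie right of it, and the intervals of NFE2L2, NQO1, HMOX1 and SRXN1 include 0.

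NFE2L2 (ENSG00000116044, chr2:177227595-177392697, minus strand in the GENCODE v29 annotation of GRCh38) had 115 and 109 CPM in KO and 126 and 117 CPM in WT. Both KO libraries lay below both WT libraries, by little. The log2 fold change was -0.11 ± 0.067 (SE, n = 2 per group; 95% interval -0.25 to 0.026) and did not pass the test (edgeR adjusted p = 0.202). It passed in 1 alternative, scaling by library totals alone (-0.18, edgeR adjusted p = 0.0291), a scaling that moved the median of all genes to -0.074. A second gene on the same strand, AC019080.1, with 54 counts in all, overlaps 17.6% of its exon bases.

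KEAP1 (ENSG00000079999, chr19:10486120-10503741, minus strand) had 148 and 139 CPM in KO and 116 and 123 CPM in WT, so that the repressor's mRNA was higher in each KO library than in either WT library. The log2 fold change was 0.27 ± 0.065 (SE, n = 2 per group; edgeR adjusted p = 0.00115), smaller than the rise that the study's methods required. Of the 212 tested genes within 5 Mb of KEAP1, 83 were called higher and 13 lower, with a median of 0.22, and KEAP1 lay above 123 of them. After the correction for GC content and length the value was 0.024 (edgeR adjusted p = 0.795), and without WT replicate 1 it was 0.23 (edgeR adjusted p = 0.0505). The transcripts of KEAP1 are GC-rich, at 62.1% against a median of 49.6% over the genes tested.

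The ratio of NFE2L2 to KEAP1 in RPKM, a scale that takes account of gene length, was 0.805 and 0.815 in KO and 1.12 and 0.980 in WT. The KO values were the lower pair. RPKM carries no correction for GC content. After the correction for GC content and length, NFE2L2 was at -3.47e-04 (edgeR adjusted p = 0.997) and KEAP1 at 0.024 (edgeR adjusted p = 0.795). An exact two-sided permutation test gave p = 0.333, the smallest value that 2 against 2 libraries allow.

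The glutathione genes held the largest called changes among the members. GCLC (ENSG00000001084, chr6:53497341-53616970, minus strand), the catalytic subunit of the enzyme that limits glutathione synthesis, had 32.2 and 37.1 CPM in KO and 52.5 and 54.2 CPM in WT. Every KO library was below every WT library, and the gap was wider than the distance within either pair. The level was 1.54-fold lower in KO, a log2 fold change of -0.62 ± 0.096 (SE, n = 2 per group; edgeR adjusted p = 2.04e-06). The 27 tested neighbours within 5 Mb also had a low median, -0.42, with 14 called lower and 1 higher, and 7 of them lay below GCLC. After the correction for GC content and length GCLC was at -0.48 (edgeR adjusted p = 9.99e-05), against -0.28 for the neighbours.

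GCLM (ENSG00000023909, chr1:93885205-93909456, minus strand), the modifier subunit of the same enzyme, had 56.3 and 53.3 CPM in KO and 80.4 and 87.0 CPM in WT. The groups were again apart. Its level was 1.53-fold lower in KO, a log2 fold change of -0.61 ± 0.081 (SE, n = 2 per group; edgeR adjusted p = 1.07e-07), and the 52 neighbours had a median of -0.16, with 6 of them below GCLM. The ratio of GCLM to GCLC in RPKM was 1.37 and 1.13 in KO and 1.2 and 1.26 in WT, with the WT values inside the range of the KO values (exact permutation p = 1).

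SLC7A11 (ENSG00000151012, chr4:138164097-138242349, minus strand), the cystine importer that feeds glutathione synthesis, had 75.5 and 89.4 CPM in KO and 97.3 and 101 CPM in WT. The 2 KO libraries differed from each other by more than the higher of them differed from the lower WT library. The log2 fold change was -0.27 ± 0.077 (SE, n = 2 per group; edgeR adjusted p = 0.00464). The call was lost without KO replicate 1, at -0.15 (edgeR adjusted p = 0.139), and without WT replicate 2, at -0.24 (edgeR adjusted p = 0.0541). The sign turned with the correction for GC content and length, to 0.079 (edgeR adjusted p = 0.393). The length of SLC7A11 implied by its counts and RPKM is 9645 nt, and its transcripts are at 38.6% GC. The 20 neighbours of SLC7A11 had a median of -0.014, and 6 of them lay below it. An antisense gene, SLC7A11-AS1, with 58 counts in all, overlaps 8.97% of its exon bases, and whether counting used strand is not given in the sources used here.

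In the thioredoxin system, TXNRD1 (ENSG00000198431, chr12:104215779-104350305, plus strand), which reduces thioredoxin with NADPH, had 390 and 383 CPM in KO and 529 and 538 CPM in WT. Each pair was tight and the pairs lay far apart. The level was 1.38-fold lower in KO, a log2 fold change of -0.47 ± 0.052 (SE, n = 2 per group; edgeR adjusted p = 3.25e-09). It remained called in every alternative, between -0.48 and -0.45 when 1 library was left out and at -0.39 (edgeR adjusted p = 1.71e-08) after the correction for GC content and length. The median of its 56 neighbours was -0.17, and 11 of them lay below it.

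SRXN1 (ENSG00000271303, chr20:646615-653370, minus strand), which restores over-oxidized peroxiredoxins, was the member with the fewest counts, 21 and 37 in KO and 15 and 17 in WT. The levels were 1.14 and 2.25 CPM in KO and 0.967 and 1.22 CPM in WT, and the groups overlapped. The log2 fold change was 0.62 with an interval from -0.44 to 1.69 (edgeR adjusted p = 0.378), which leaves out a fall as large as that of GCLC but not a rise of that size, so a rise was not resolved at this depth. The value was 0.060 without KO replicate 2 and 1.04 without KO replicate 1, so its size rests on 1 library. The annotation places 85.0% of its exon bases in a second gene on the same strand, AL121758.1, which had 3 counts over the 4 libraries, so reads of SRXN1 could be lost to ambiguity and its level is uncertain.

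NQO1 (ENSG00000181019, chr16:69706996-69726951, minus strand), a quinone reductase and a widely used readout of NRF2 activity, had 74.1 and 70.1 CPM in KO and 77.3 and 70.4 CPM in WT. The groups overlapped and the log2 fold change was -0.035 (95% interval -0.20 to 0.13, edgeR adjusted p = 0.770). The interval leaves out a change as large as that of GCLC, GCLM or TXNRD1. The sign turned without KO replicate 2 (0.0032) and without WT replicate 1 (0.043), so no direction can be given. A gene on the opposite strand, AC092115.2, overlaps 17.7% of its exon bases.

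HMOX1 (ENSG00000100292, chr22:35380361-35394214, plus strand), the inducible heme oxygenase, had 6.50 and 5.78 CPM in KO and 5.16 and 6.24 CPM in WT, again overlapping. Its interval was wider, from -0.36 to 0.58 around 0.11 (edgeR adjusted p = 0.75), with 80 to 120 counts per library. The sign turned after the GC and length correction (-0.18, edgeR adjusted p = 0.608) and without WT replicate 1 (-0.015). HMOX1 lay above 88 of its 107 neighbours, which had a median of -0.26.

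OSGIN1 (ENSG00000140961, chr16:83948282-83966332, plus strand), an oxidative stress-induced growth inhibitor, had 16.4 and 18 CPM in KO and 12.6 and 12.1 CPM in WT. Both KO libraries were above both WT libraries. The log2 fold change was 0.47 ± 0.15 (SE, n = 2 per group; edgeR adjusted p = 0.0111), and OSGIN1 lay above 66 of its 72 neighbours, whose median was -0.087. The call was lost with DESeq2 (0.47, adjusted p = 0.0969), without KO replicate 2 (0.41, edgeR adjusted p = 0.0742), without WT replicate 2 (0.44, edgeR adjusted p = 0.0629) and after the correction for GC content and length (0.17, edgeR adjusted p = 0.407). Its transcripts are at 63.1% GC, and AC009119.2, with 1 count in all, overlaps 13.9% of its exon bases on the same strand.

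**Figure D2:**
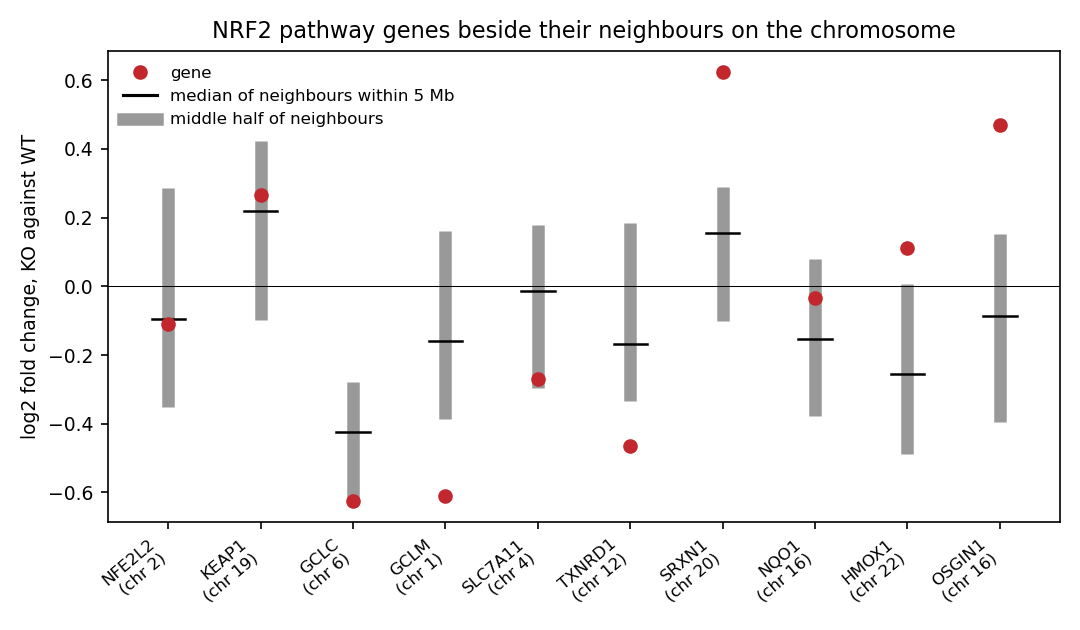
Log2 fold change, KO against WT (y axis), of each NRF2 pathway gene as a red point, beside the tested genes within 5 Mb on its chromosome, whose median is a black line and whose middle range, from the 25th to the 75th percentile, is a grey bar. GCLM and TXNRD1 sit below the bars of their neighbours, OSGIN1, SRXN1 and HMOX1 above theirs, GCLC at the lower end of a bar with a median of -0.42, and KEAP1 within a bar with a median of 0.22.

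Levels between genes were compared in RPKM. In WT cells TXNRD1 was the most abundant member, at 138 ± 2.20 RPKM (SD, n = 2), followed by NFE2L2 (43.5 ± 2.14), KEAP1 (41.5 ± 2.01), NQO1 (26.0 ± 1.63), GCLM (17.7 ± 1.04), GCLC (14.3 ± 0.369), SLC7A11 (10.5 ± 0.332), OSGIN1 (5.31 ± 0.137), HMOX1 (3.21 ± 0.442) and SRXN1 (0.415 ± 0.0692). Among neighbours in this order, only NFE2L2 and KEAP1 overlapped in their WT libraries. In KO cells KEAP1 (47.5 ± 2.01 RPKM) stood above NFE2L2 (38.4 ± 1.30), and the order of the other members was the same. GCLC (8.87 ± 0.916) and SLC7A11 (8.34 ± 1.01) overlapped in the KO libraries, which they did not in WT.

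**Figure D3:**
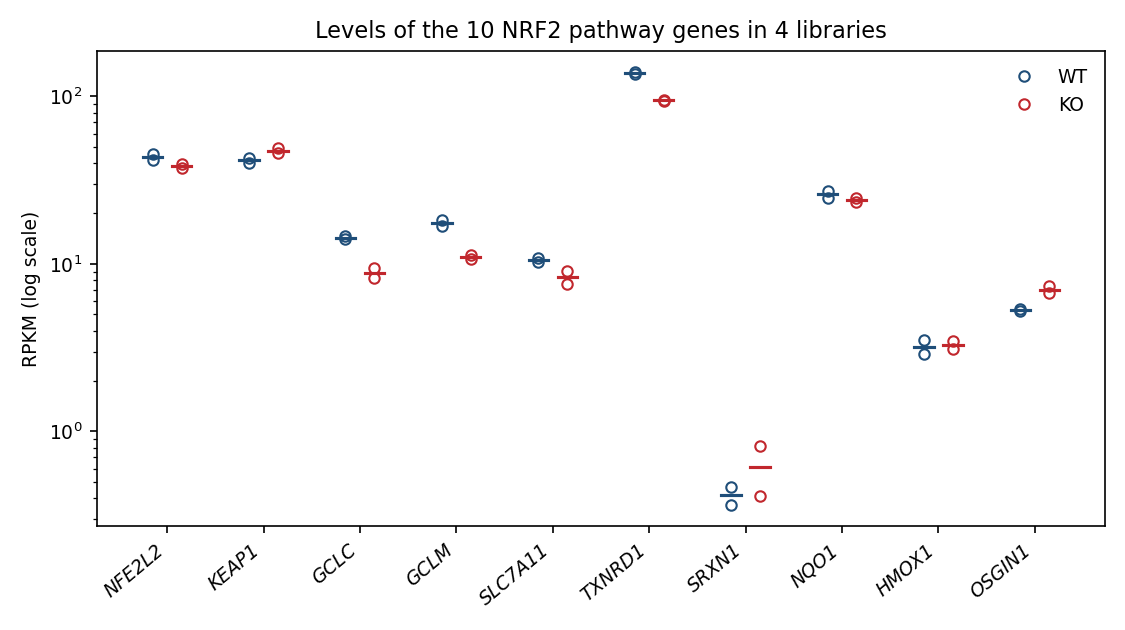
Level of each NRF2 pathway gene in RPKM (y axis, log scale) in the 2 KO libraries (red) and 2 WT libraries (blue), with 1 circle per library and a short line at each group's mean. TXNRD1 lies at the top in all 4 libraries and SRXN1 at the bottom, and the KO circles of GCLC, GCLM and TXNRD1 lie below the WT circles.

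Beyond the 10 members, 59 further genes of NRF2 control and output were listed by role. Earlier results of these data were known then too, and 52 of the genes were tested. Of these, 15 were higher and 8 lower in KO, 23 in all or 44.2%, against 39.5% of all genes tested, and their median log2 fold change was 0.030. The balance of directions turned in some settings and held in the others. It was 11 higher and 13 lower after the correction for GC content and length, 11 and 12 with library totals, and 9 and 10 with limma on RPKM. Library totals and RPKM both leave out the TMM factors. In every other alternative more genes were higher than lower. Examples are 12 and 4 with DESeq2, 15 and 9 with the exact test, 15 and 8 with a replicate block and 7 and 6 with the study's thresholds. Over all genes tested, 3074 were higher and 2891 lower as reported, and the balance moved as well. It was 2562 and 2482 after the correction, 2508 and 3615 with library totals, and 2140 and 2879 with limma on log2(RPKM + 1). Promoter windows were found for 44 of the further genes. The core motif was present in 16 of their 61 windows (26.2%), against 13.3% of all windows.

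Among 12 genes that control NRF2, 4 were higher and 2 lower (50% called, against 39.5% of all genes tested). GSK3B, a kinase that marks NRF2 for degradation by another ligase, had 79.4 and 84.0 CPM in KO and 110 and 99.3 CPM in WT (log2 fold change -0.36, edgeR adjusted p = 1.38e-04), and -0.18 after the GC and length correction, and its chromosomal neighbours had a median of -0.31. MAFK, a small MAF partner, had 64.4 and 58.1 CPM in KO and 48.7 and 51.2 CPM in WT (0.30, edgeR adjusted p = 0.00633), a call lost without KO replicate 1 (0.22, edgeR adjusted p = 0.0876) or WT replicate 1 (0.27, edgeR adjusted p = 0.0713) and absent after the GC and length correction. BACH1, the repressor that competes for the same element, was singled out after its values were seen, and had 69.7 and 82.2 CPM in KO and 82.1 and 80.1 CPM in WT (-0.098, edgeR adjusted p = 0.362). Its value depended on which KO library was left out, at -0.22 without KO replicate 2 (edgeR adjusted p = 0.0347) and 0.018 without KO replicate 1 (edgeR adjusted p = 0.895), and was 0.11 after the GC and length correction (edgeR adjusted p = 0.273).

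Of 9 further glutathione genes tested, 2 were higher and 1 lower (33.3% called, against 39.5% of all genes tested). GSTP1, a glutathione transferase, had 757 and 753 CPM in KO and 426 and 443 CPM in WT (log2 fold change 0.80, edgeR adjusted p = 2.74e-15), against a median of 0.28 for its neighbours, and so moved opposite to GCLC and GCLM, and was at 0.48 after the GC and length correction. GLRX, a glutaredoxin, had 6.93 and 5.84 CPM in KO and 8.96 and 12.1 CPM in WT (-0.71, edgeR adjusted p = 0.00457), and was not called without WT replicate 2 (-0.48, edgeR adjusted p = 0.148) or by DESeq2 (adjusted p = 0.0659). SLC3A2, the chain that pairs with SLC7A11 and with other amino acid carriers, was singled out after its values were seen and was higher, at 1288 and 1234 CPM in KO against 1019 and 1042 CPM in WT (0.29, edgeR adjusted p = 5.33e-06), and at 0.14 after the GC and length correction. The 208 tested neighbours of SLC3A2 had a median of 0.23, and 114 of them lay below it.

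In the thioredoxin list 1 of 3 tested genes was called (33.3%, against 39.5% of all genes tested). TXN, thioredoxin itself and the substrate of TXNRD1, had 346 and 328 CPM in KO and 270 and 266 CPM in WT (log2 fold change 0.33, edgeR adjusted p = 6.76e-06), so that the substrate rose where the reductase fell.

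The 6 NADPH genes were split, with 3 higher and 2 lower (83.3% called, against 39.5% of all genes tested). ME1, the cytosolic malic enzyme, had 46.1 and 50.7 CPM in KO and 102 and 91.5 CPM in WT (log2 fold change -1.0, edgeR adjusted p = 1.93e-12), below all but 1 of its 34 neighbours, whose median was -0.34. PGD, of the pentose phosphate pathway, had 213 and 188 CPM in KO and 164 and 160 CPM in WT (0.31, edgeR adjusted p = 1.36e-04), and was at 0.15 after the GC and length correction. The 73 tested neighbours of PGD had a median of 0.18, and 47 of them lay below it.

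Of 10 detoxification genes tested, 1 was higher and 1 lower (20% called, against 39.5% of all genes tested). PTGR1, a reductase of prostaglandins and reactive aldehydes, had 120 and 107 CPM in KO and 87.4 and 85.8 CPM in WT (log2 fold change 0.39, edgeR adjusted p = 3.55e-05). PIR, pirin, had 3.36 and 2.37 CPM in KO and 4.19 and 5.88 CPM in WT (-0.80, edgeR adjusted p = 0.0322), and lost its call with DESeq2 (adjusted p = 0.178), without KO replicate 2 (-0.58, edgeR adjusted p = 0.189) and without WT replicate 2 (-0.54, edgeR adjusted p = 0.330).

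Of 7 heme and iron genes tested, 3 were higher and 1 lower (57.1% called, against 39.5% of all genes tested). FTH1, ferritin heavy chain, had 589 and 606 CPM in KO and 367 and 383 CPM in WT (log2 fold change 0.67, edgeR adjusted p = 4.84e-13), a value that is uncertain because 78.7% of its 50-base stretches recur in other annotated transcripts, and that was 0.45 after the GC and length correction. FTL, ferritin light chain, singled out after its values were seen, had 646 and 610 CPM in KO and 635 and 616 CPM in WT (0.0062, edgeR adjusted p = 0.941), and -0.31 (edgeR adjusted p = 7.97e-07) after the GC and length correction. FECH, which inserts iron into protoporphyrin to make heme, had 14.0 and 12.4 CPM in KO and 33.8 and 29.4 CPM in WT (-1.26, edgeR adjusted p = 6.19e-10). It lay in a region whose 25 tested genes had a median of -0.99.

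Of the remaining 5 listed targets tested, 1 was higher and 1 lower (40% called, against 39.5% of all genes tested). SESN2, a sestrin, had 64.5 and 62.8 CPM in KO and 44.7 and 42.9 CPM in WT (log2 fold change 0.54, edgeR adjusted p = 4.40e-06). TRIM16L had 23.2 and 23.0 CPM in KO and 34.3 and 35.2 CPM in WT (-0.59, edgeR adjusted p = 4.06e-05), and 45.2% of its 50-base stretches recur elsewhere, so its value is uncertain. SLC7A11 and SESN2 are also known targets of ATF4, and of 6 genes of that factor's response 0 were called higher and 1 lower by edgeR's quasi-likelihood test, where 39.5% of all genes tested were called. Their median log2 fold change was 0.11. Of the 6, 5 lay above 0, as did 7493 of the 15104 genes tested, and 4 had groups apart (68.1% of all genes). In edgeR's quasi-likelihood test 3 of the 6 had an unadjusted p under 0.05, and 1 of these, PSAT1, was lower in KO. Every called gene, 39.5% of all genes tested, passed that looser limit too. The share of all genes under it is therefore at least 39.5% and was not counted, so the 3 of 6 cannot be set against it.

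**Figure D4:**
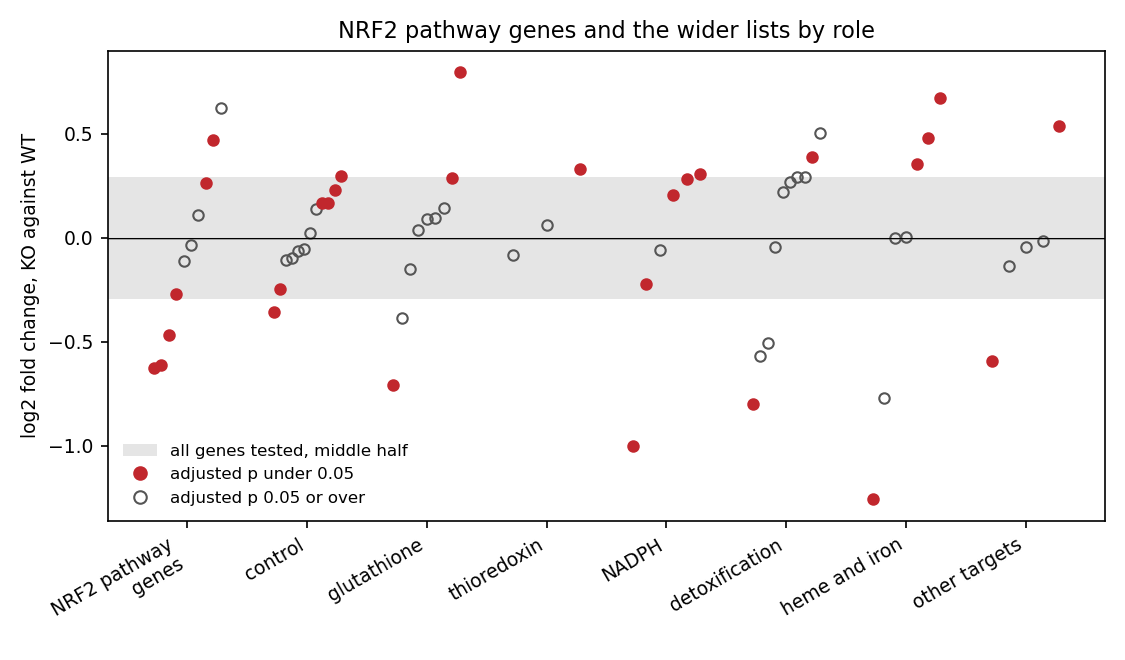
Log2 fold change, KO against WT (y axis), of the 10 NRF2 pathway genes and of the tested genes of 7 further lists by role, with 1 circle per gene, filled red where the adjusted p was under 0.05, and a grey band from the 25th to the 75th percentile of all genes tested. Circles lie on both sides of 0 in every list, with FECH (-1.26) and ME1 (-1.0) lowest and GSTP1 (0.80) highest.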

How the data were processed

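RNA-seq of 2 KO and 2 WT libraries of HN12 cells was used. The authors deposited read counts per gene, not normalized, and RPKM values. The gene length implied by a gene's counts, library totals and RPKM differed between libraries by at most 1.8e-05%. That length was not compared with an annotated one. The submitters' processing notes name CASAVA, STAR 2.5, HTSeq, edgeR 3.16.5, DESeq2 and the build hg19, with no role or order, so positions were taken by Ensembl identifier from GENCODE v29 (GRCh38) and not from the files. Reads were 50 nt long.

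Counts were tested with edgeR 4.0.16 in R 4.3.3 (filterByExpr, TMM, glmQLFit and glmQLFTest, no replicate term, Benjamini-Hochberg adjustment over 15104 genes). The biological coefficient of variation was 5.88%. The scripts were tested on simulated counts. Replicate numbers were not treated as pairs. Intervals and floors cover counting error and the spread between 2 libraries only. Ratios of RPKM were compared by an exact permutation test.

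The members and lists were chosen with earlier results of these data known. Named genes were the 10 members, ATAD3A, and from each further list up to 2 genes with the largest absolute change among those called with groups apart; others are marked. Alternatives were DESeq2 1.42.0, limma 3.58.1 on log2(RPKM + 1) and log2(RPKM + 0.1), the exact test, other scalings and filters, a replicate block, the study's thresholds (unadjusted p under 0.05 with fold over 1.25 or under 0.75), leaving out each library, and a GC and length correction. The last was made with splines of 4 degrees of freedom per library, fitted on 11059 genes with an average log2 CPM over 2. GSTM3, MGST1, AKR1B10, AKR1C2, UGT1A6 and SLC40A1 did not pass the filter and NR0B1 was not analysed here.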

Additional observations from a re-analysis of the deposited data

How the results depend on the processing

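With 2 libraries per group the permutation tests could not pass 0.05, and when 1 library was left out the lone sample was assumed to vary like the other group. Over 150 values of the 10 members under the alternatives, 133 kept their direction and side of the threshold, 11 fell short of it, 1 newly passed it and 5 changed sign, 4 of these in NQO1 and HMOX1, which were not called under any alternative. Members called higher, 2 in the reported analysis, were 1 with DESeq2, 1 with the study's thresholds, 0 after the GC and length correction, and 1 to 2 when 1 library was left out, with 1 without KO replicate 2, without WT replicate 1 or without WT replicate 2. Members called lower, 4 as reported, ranged from 3 to 5 over the alternatives. The members' median of -0.073 became -0.14 with library totals and -0.14 with limma at either pseudocount. It became -0.019 after the GC and length correction and ranged from -0.13 to -0.031 when 1 library was left out. The median over all genes tested, -0.0042 as reported, also moved. That median was -0.074 with library totals, -0.054 and -0.071 with limma at pseudocounts 1 and 0.1, and -0.011 after the GC and length correction. Genes of the further lists called higher, 15 as reported, were 9 with limma at either pseudocount, 11 with library totals and 7 with the study's thresholds, and 10 to 14 when 1 library was left out. Those called lower, 8 as reported, were 4 with DESeq2, 10 with limma at either pseudocount, 12 with library totals, 13 after the GC and length correction, and 4 to 8 when 1 library was left out, the 4 without WT replicate 2. The GC and length correction turned SLC7A11 to 0.079, HMOX1 to -0.18, MAFK to -0.00998, BACH1 to 0.11 and FTL to -0.31. FTL, at 0.0062 as reported, was also -0.064 with library totals and with limma at either pseudocount. When 1 library was left out, FTL ranged from -0.035 to 0.046, NQO1 from -0.0998 to 0.043, HMOX1 from -0.015 to 0.25 and BACH1 from -0.22 to 0.018. The correction also moved NFE2L2, KEAP1, OSGIN1, GSK3B, PGD, SLC3A2, GSTP1 and FTH1 toward 0 by over 1.5 times. Over all genes, 3074 higher and 2891 lower became 2508 and 3615 with library totals, 2140 and 2879 with limma on log2(RPKM + 1), 2165 and 1881 with DESeq2 and 2565 and 1847 with the study's thresholds. The cause of these differences was not tested, except that the study's thresholds add a fold limit.

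The labels do not say whether equal replicate numbers mark pairs of cultures. The deviations of same-numbered libraries had a correlation of -0.0217 across 15104 genes. No large shared effect of the replicate number was thus seen, but a correlation cannot show how the cultures were set up. With the replicate number as a block, 2 members were higher and 4 lower, with a median of -0.072, 15 and 8 of the further genes were higher and lower, and 3010 and 2810 of all genes.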
